A study of Homo sapiens with 10 samples.

Results

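Integrin and laminin subunit genes were followed in RNA sequencing data of 10 libraries made from U2OS, a line of human osteosarcoma cells. Genes were taken by symbol: ITGA followed by a number, 2B, V, L, M, X, E or D, ITGB followed by a number, and LAMA, LAMB or LAMC followed by a digit. The rule took 38 of the 26040 symbols in the deposited table, namely 18 integrin alpha subunits, 8 integrin beta subunits and 12 laminin chains. Of these, 33 had 3 or more libraries with a value of 10 or higher and were tested. The other 5 were ITGAD, ITGAL, ITGB6, ITGB7 and LAMB4. The series asks how knockdown of ARVCF, an armadillo-repeat catenin of cell junctions, alters gene activation by p53.

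There were 3 libraries of cells carrying an shRNA against ARVCF and given 10 µM nutlin-3a for 24 h, 3 of such cells left untreated, 3 of cells carrying a negative control shRNA and given the same drug, and 1 untreated library of the control cells. Nutlin-3a blocks the binding of MDM2 to p53 and so stabilises p53. All 4 groups carried a lentiviral shRNA vector and were selected in puromycin at 1 µg/ml. The labels speak of single clones. Replicate numbers 1, 2 and 3 of the shARVCF groups stand for 3 different shRNAs, each in a line of its own that was sampled with and without the drug. The labels name no separate lines among the 4 control libraries, called the control line here, and nothing says that the 3 nutlin-3a control replicates were separate cultures, so their spread may be technical. With a single untreated control library, that group was taken to vary like the other 3. Nutlin-3a control replicates 2 and 3 have later library numbers than the other 8 libraries, which are called the first library series here; no label names a batch.

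Values are estimated fragments per gene that the authors scaled across libraries, and their totals ran from 17821751 to 19903778 per library. ARVCF itself read 1284, 1188 and 1232 scaled fragments in the shARVCF nutlin-3a libraries, against 292, 343 and 338 in the untreated shARVCF libraries. It read 2928, 2571 and 2376 in the nutlin-3a control libraries, against 618 in the untreated control library. Under each condition ARVCF was lower in the shARVCF lines than in the control line but still present, and it was higher with the drug in both. MDM2, a p53 target as well, read 21994, 18852 and 23800.0 in the shARVCF nutlin-3a libraries, against 2051, 2019 and 2787 untreated, and 11199, 9497 and 10732 in the nutlin-3a control libraries, against 2244 in the untreated control. CDKN1A, the p53 target that encodes the cell cycle inhibitor p21, lay between 27228 and 34777 in the 6 nutlin-3a libraries, against 2636 to 4528 in the 4 untreated ones. Of the 9 osteoblast and mesenchymal markers, COL1A1, SPARC, VIM and RUNX2 were at 328 or above in every library, while COL1A2, the partner chain of COL1A1, lay between 1.83 and 15.5. ALPL, a bone phosphatase, was 633, 438 and 792 in the shARVCF nutlin-3a libraries, against 198, 123 and 218 untreated, and 1385, 1502 and 1265 in the nutlin-3a control libraries, against 176 in the untreated control. SP7, BGLAP and IBSP, which also mark osteoblasts, stayed at or below 4.77. RNA was pooled over the cells of a culture, so fewer cells expressing a gene and less RNA per cell cannot be told apart.

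Integrins are heterodimers of an alpha and a beta subunit that span the plasma membrane and tie the extracellular matrix to the actin cytoskeleton. The alpha subunit largely sets which ligand is bound, and ITGB1 is the beta partner of most alphas in adherent cells. Laminins are cross-shaped trimers of an alpha, a beta and a gamma chain that assemble into the basement membrane. In osteosarcoma cells, as in bone, integrins mediate attachment to collagen, fibronectin, vitronectin and laminin.

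Promoter sequences of ITGA4, ITGAV and LAMB3 are shown because the calls on these genes held after removal of trends with transcript length and GC content: ITGA4 fell under nutlin-3a in both kinds of line, and the nutlin-3a effects on ITGAV and LAMB3 differed between them. Each is the RefSeq stretch of 300 bases from 250 before to 50 after the annotated start, read 5′ to 3′ on the gene's strand in build GRCh38.p14. Capitals mark the GC box searched for. The calls on ITGA3, ITGAX, ITGB2 and ITGB3 also held in both kinds of line, but these genes have no window. Those on ITGA8 and ITGAM held as well, but both genes were low and their windows are not shown.
ITGA4 (chr2:181457136-181457435, plus strand): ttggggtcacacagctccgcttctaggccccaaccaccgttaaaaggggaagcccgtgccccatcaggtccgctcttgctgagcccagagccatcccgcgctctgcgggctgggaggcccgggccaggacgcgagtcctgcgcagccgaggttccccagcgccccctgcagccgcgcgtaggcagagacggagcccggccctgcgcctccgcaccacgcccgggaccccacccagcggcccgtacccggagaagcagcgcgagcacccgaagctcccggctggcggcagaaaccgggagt
ITGAV (chr2:186589806-186590105, plus strand): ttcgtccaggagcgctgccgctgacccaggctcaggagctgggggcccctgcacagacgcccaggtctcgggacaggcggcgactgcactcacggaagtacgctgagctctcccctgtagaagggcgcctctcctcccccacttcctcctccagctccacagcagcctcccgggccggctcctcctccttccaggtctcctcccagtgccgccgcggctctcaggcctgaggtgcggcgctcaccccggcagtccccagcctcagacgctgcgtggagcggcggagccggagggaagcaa
LAMB3 (chr1:209652376-209652675, minus strand): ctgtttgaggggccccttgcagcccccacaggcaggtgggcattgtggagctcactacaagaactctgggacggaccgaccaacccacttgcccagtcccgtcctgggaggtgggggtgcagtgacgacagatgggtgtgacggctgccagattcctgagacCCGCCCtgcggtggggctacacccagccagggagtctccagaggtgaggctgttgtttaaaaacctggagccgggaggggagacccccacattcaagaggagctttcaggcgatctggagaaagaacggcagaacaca

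A GC box (GGGCGG, either strand) occurred once in the LAMB3 window and was in neither of the other 2. It was found in 44.6% of all 27305 RefSeq promoter windows of this length and in 14 of the 26 members with a window. The half-site bound by p53, searched by its consensus on both strands, was in 6.54% of all windows and in none of the 26. TATAAA was in 12.0% of windows and in 1 member, ITGA6. CCAAT was in 35.7% and in 4 members, and the AP-1 site TGANTCA in 7.76% and in 2 members. No match says only that these letters are not in the window. Members without a window included ITGA3, ITGA7, ITGA9, ITGAD, ITGAL, ITGAX, ITGB2, ITGB3, ITGB4, LAMA1 and LAMC3.

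Per kilobase of spliced transcript, a few subunits made up most of each family in every group. ITGA3, the alpha3 subunit of a laminin receptor, led the integrin alphas in all 4 groups, at 8976 ± 774 scaled fragments per kb (SD, n = 3) in the shARVCF nutlin-3a libraries, against 4318 ± 365 in the untreated ones. It stood at 10411 ± 1516 per kb in the nutlin-3a control libraries, against 4108 in the untreated control. Its share of all alphas per kb was 70.6% in the shARVCF nutlin-3a libraries and 81.3% in the nutlin-3a control libraries, against 60.7% and 60.3% in the untreated shARVCF and control libraries. Behind it came ITGA6, ITGAV, ITGA5 and ITGA2 in the shARVCF nutlin-3a libraries, at 883 ± 89.9, 859 ± 121, 811 ± 151 and 788 ± 208 per kb, which do not differ beyond their spread. In the nutlin-3a control libraries ITGA5 was next at 910.4 ± 30.6 per kb, ITGA6 followed at 549 ± 75.4, and ITGAV stood only sixth at 212 ± 32.2.

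Among the beta subunits ITGB1 led in every group, with 75.0% of all betas per kb in the shARVCF nutlin-3a libraries and 61.7% in the nutlin-3a control libraries, against 79.4% and 80.8% in the untreated shARVCF and control libraries. ITGB5, a partner of ITGAV, was the next, with 20.1% in the shARVCF nutlin-3a libraries and 32.3% in the nutlin-3a control libraries, against 16.3% and 15.5% untreated. LAMA1 and LAMA5 were the leading laminin alpha chains, and LAMA1 held 62.6% of the alpha chains per kb in the shARVCF nutlin-3a libraries and 51.4% in the nutlin-3a control libraries, against 39.8% and 37.8% untreated. The leading beta chain was not the same in all groups: LAMB3 held 54.2% of beta chains in the nutlin-3a control libraries, while LAMB1 held the largest part in the shARVCF nutlin-3a libraries (38.6%), the untreated shARVCF libraries (47.4%) and the untreated control (45.5%). The lengths are those of the longest annotated transcripts, so levels of 2 genes that lie close are not ranked firmly.

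**Figure D1:**
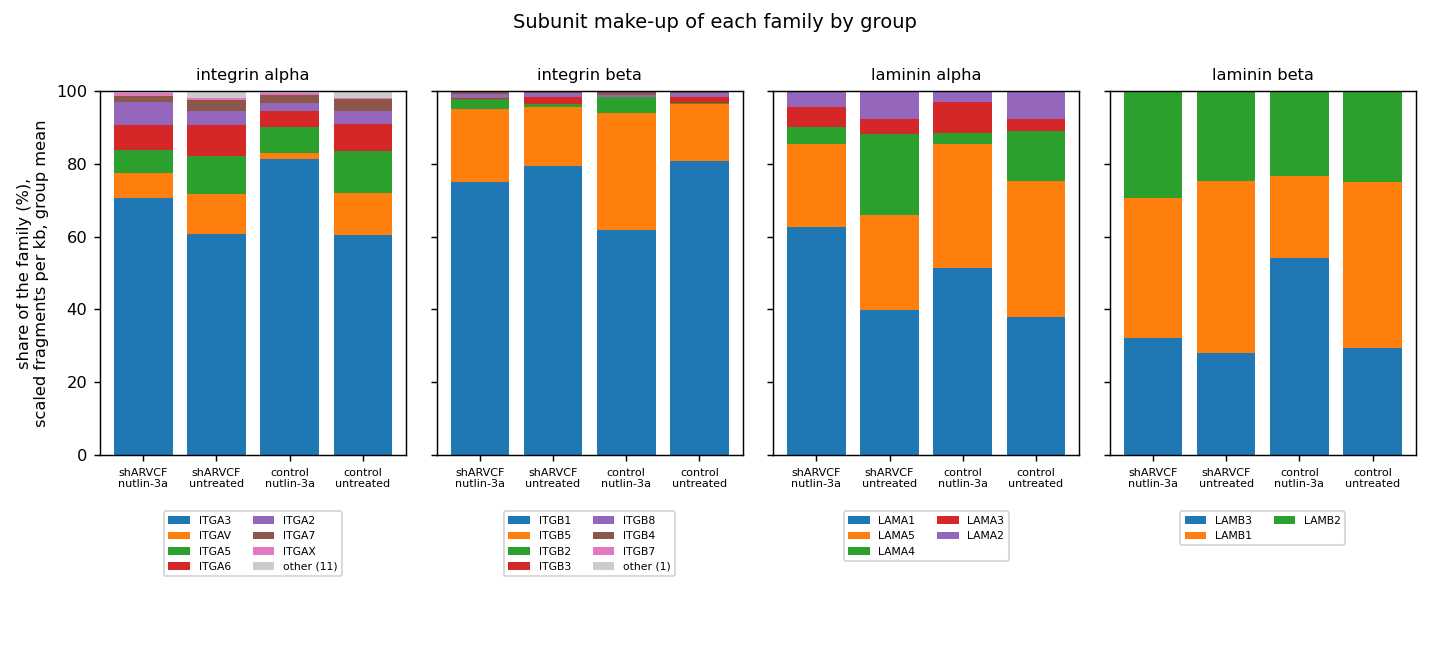
Stacked bars show each subunit's share (percent, mean per group) of its family, from scaled fragments per kb of spliced transcript, for the 4 groups of libraries. ITGA3 is the largest part of the integrin alphas in every group, and LAMB3 is the largest part of the laminin beta chains in the nutlin-3a control group, at 54.2%.

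Nutlin-3a raised some subunits and lowered others in both kinds of line, in shares not far from those of all genes. In the shARVCF lines 10 of the 33 tested members (30.3%) rose and 5 (15.2%) fell, where 21.0% of all 14955 tested genes rose and 21.7% fell (limma, adjusted p under 0.05 over all tested genes). In the control line 6 (18.2%) rose and 10 (30.3%) fell, where 25.1% and 32.0% of all genes did. After removal of trends with spliced length and GC content 10 members rose and 6 fell in the shARVCF lines (24.5% and 20.7% of all genes), and 10 rose and 5 fell in the control line (28.7% and 21.0%). Genes that rose in both kinds of line were ITGA3, LAMB3, ITGAM, ITGAX and ITGB2, and those that fell in both were ITGA1, ITGA4, ITGA8 and ITGB3. These 2 comparisons share no library, but they come from 1 fit with a shared estimate of the spread. No member was called in opposite directions in them. The share of all genes called in both was not computed, so this overlap is not read as a result about the members. ITGAM passed the filter through its nutlin-3a libraries, so its calls are not independent of the filter. The 5 members that fell in the shARVCF lines became 2 without shARVCF nutlin-3a replicate 3 or untreated shARVCF replicate 2, and 3 without shARVCF nutlin-3a replicate 1. In that order, 2906, 2739 and 2872 of all 14955 tested genes fell, against 3247 with all libraries. The median log2 change of the members was 0.051 in the shARVCF lines (-0.0017 over all tested genes) and -0.16 in the control line (-0.10 over all tested genes).

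Set against the control line under nutlin-3a, the shARVCF lines had more of 14 members and less of 3, where 32.3% of all genes were higher and 26.1% lower. The members' median difference was log2 0.28, against 0.056 over all tested genes. When trends with spliced length and GC content had been taken out of each library, 4 members were higher and 5 lower, and the shares over all genes were 15.9% and 23.0%. Without the drug no member was called in either direction, also none at an unadjusted p under 0.05, and 0.0201% of all genes were called higher and 0% lower. For ITGAV that difference was log2 -0.052 (95% interval -0.49 to 0.39) and for LAMB3 log2 -0.10 (95% interval -0.43 to 0.22). The comparison rests on the lone untreated control library. The nutlin-3a effects of the 2 kinds of line differed for 6 members, 5 with a higher and 1 with a lower value in the shARVCF lines, where 19.3% and 12.5% of all genes were called. Without shARVCF nutlin-3a replicate 1 the count was 10, with 9 higher and 1 lower, where 2718 of 14955 genes were called higher and 1585 lower. With the length and GC trends removed, 1 member was called higher and 2 lower, and 5.28% and 8.25% of all genes were. The comparison under nutlin-3a shares its libraries with both drug effects, and the difference of effects uses all 10, so their calls are not independent of each other.

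The laminin-binding alphas ITGA3, ITGA6 and ITGA7 are partners of ITGB1, and ITGA6 also of ITGB4. Nutlin-3a raised 2 of the 3 in each kind of line, where 21.0% of all genes rose in the shARVCF lines and 25.1% in the control line. ITGA3 (chromosome 17, 50055968 to 50090481, plus strand, 26 exons, build hg38) read 44282, 47434 and 39902 in the shARVCF nutlin-3a libraries, against 19049, 22236 and 22031 in the untreated ones, and 42924, 57581 and 52156 in the nutlin-3a control libraries, against 20078 in the untreated control. Every nutlin-3a library lay above every untreated one. The rise was 2.08-fold in the shARVCF lines (log2 1.06, SE 0.12, adjusted p = 1.92e-05), and in the control line it was 2.52-fold (log2 1.33, SE 0.17, adjusted p = 3.52e-05). ITGA6 read 4692, 4642 and 5541 in the shARVCF nutlin-3a libraries, against 2940.3, 3185 and 3878 untreated, and 2679.8, 3056 and 3525 in the nutlin-3a control libraries, against 2813 in the untreated control. It rose 1.49-fold in the shARVCF lines (log2 0.58, adjusted p = 0.00305), and its change of log2 0.13 in the control line was not called (adjusted p = 0.576). After removal of length and GC trends the control line's change was called too (log2 1.02, adjusted p = 0.00116), and the higher ITGA6 of the shARVCF lines under the drug (log2 0.69, adjusted p = 0.000572) became log2 -0.11 (adjusted p = 0.57). ITGA7 read 882, 884 and 798 in the shARVCF nutlin-3a libraries, against 1266, 1063 and 1046 in the nutlin-3a control libraries, with no overlap. Untreated it read 848, 833 and 792 in the shARVCF and 869.8 in the control libraries. Its lower level in the shARVCF lines under the drug was called as deposited (log2 -0.39, adjusted p = 0.00477) and with the trends removed (log2 -0.30, adjusted p = 0.0299). Its rise in the control line (log2 0.37, adjusted p = 0.0425) lost its call when the trends were removed (adjusted p = 0.0584) and when nutlin-3a control replicate 1 (log2 0.28, adjusted p = 0.0785), shARVCF nutlin-3a replicate 2 (adjusted p = 0.0574) or untreated shARVCF replicate 1 or 2 (adjusted p = 0.0542 and 0.0578) was left out.

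The collagen-binding alphas ITGA1, ITGA2, ITGA10 and ITGA11 pair with ITGB1, and they did not move as a block. ITGA2 (chromosome 5, 52989326 to 53094779, plus strand, 30 exons), the alpha2 subunit of a fibrillar collagen receptor, read 4331, 6897 and 7365 in the shARVCF nutlin-3a libraries, against 1367, 2642 and 2901 in the untreated ones. In the control line it read 2123, 1862 and 2413 under nutlin-3a, against 2006 untreated. The shARVCF lines were all above their own untreated libraries, while the control libraries lay on both sides of theirs. The rise in the shARVCF lines was 2.76-fold (log2 1.46, SE 0.31, adjusted p = 0.00579), and the change in the control line was log2 0.080 (adjusted p = 0.889). The difference between the 2 effects was log2 1.38 and was not called (adjusted p = 0.0866, and 0.000143 with shRNA line as a block). Without the length and GC trends that difference was log2 0.37 (adjusted p = 0.73), and the change in the control line was log2 1.21 (adjusted p = 0.0503).

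ITGA1, whose receptor binds collagen of basement membranes, read 127, 241 and 158 in the shARVCF nutlin-3a libraries, against 211, 399 and 344 untreated, and 38.0, 46.6 and 51.9 in the nutlin-3a control libraries, against 205 in the untreated control. Its lowest values were those of the nutlin-3a control libraries, below every other library, and the 2 shARVCF groups overlapped. It fell 1.81-fold in the shARVCF lines (log2 -0.86, adjusted p = 0.0235, and 0.0013 with shRNA line as a block). The control line's fall was 4.46-fold (log2 -2.16, adjusted p = 0.00047). ITGA1 was lower with the drug in 3 of 3 shARVCF lines. In the fit with no block the call was lost without shARVCF nutlin-3a replicate 1 (log2 -0.65) or 3 (log2 -0.81). It was also lost without untreated shARVCF replicate 2 (log2 -0.67) or 3 (log2 -0.78), and in the first library series. The control line's fall lost its call when length and GC trends were removed (log2 -0.91, adjusted p = 0.0688), as did its higher level in the shARVCF lines under the drug (log2 1.88, adjusted p = 8.73e-05 as deposited, log2 0.66, adjusted p = 0.0757 after). The gene overlaps PELO on the same strand, which read 727 to 1007 in the shARVCF nutlin-3a libraries and 865 to 1057 in the nutlin-3a control libraries. ITGA10 stayed between 12.9 and 20.3 in all 10 libraries and was called in no comparison.

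Subunits that bind the Arg-Gly-Asp motif of fibronectin and vitronectin include ITGAV, ITGA5, ITGA8 and, on platelets, ITGA2B. ITGAV (chromosome 2, 186590065 to 186680901, plus strand, 30 exons), the shared alpha of the vitronectin receptors and of the integrins that activate latent TGF-beta, had the smallest adjusted p among the members for the difference of effects between the 2 kinds of line. It read 5099, 6749.5 and 6276 in the shARVCF nutlin-3a libraries, against 4617, 6132 and 5625 in the untreated shARVCF libraries, and 1717, 1264 and 1494 in the nutlin-3a control libraries, against 5619 in the untreated control. The 3 nutlin-3a control libraries were below all others, and the other 7 overlapped. In the control line it fell 3.79-fold (adjusted p = 7.36e-06, log2 -1.92, SE 0.20), and in the shARVCF lines its change was log2 0.15 (adjusted p = 0.442, 95% interval -0.17 to 0.46). The 2 effects differed by log2 2.07 (SE 0.25, adjusted p = 0.00012). Removal of length and GC trends made the fall in the control line smaller, and it was still called (log2 -0.75, adjusted p = 0.00458), as was the difference of effects (log2 1.08, adjusted p = 0.00773).

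ITGA5, the alpha of the classical fibronectin receptor, was between 2762 and 4194 in the 10 libraries and was called in none of the 5 comparisons without the block on shRNA line. With the block it was called lower in the shARVCF lines under the drug (log2 -0.18, adjusted p = 0.0451). ITGA8, a subunit known for binding nephronectin in the developing kidney, was low: 4.56, 22.2 and 4.75 in the shARVCF nutlin-3a libraries, against 25.9, 62.8 and 30.6 in the untreated ones. It was listed at 0 in all 3 nutlin-3a control libraries, against 22.8 in the untreated control, so no fold is given for that line. It fell 4.18-fold in the shARVCF lines (log2 -2.06, adjusted p = 0.0155, and 0.00362 with shRNA line as a block). The first of these calls was lost without shARVCF nutlin-3a replicate 1 (adjusted p = 0.0608) or 3 (adjusted p = 0.0585). It was also lost without untreated replicate 2 (adjusted p = 0.0815) and with a pseudocount of 0.1 (adjusted p = 0.0559). ITGA8 was also called lower in the control line (adjusted p = 0.000614) and higher in the shARVCF lines under the drug (adjusted p = 0.000659). ITGA2B, the platelet fibrinogen receptor subunit, stayed at or below 30.9 and was not called.

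ITGA4 and ITGA9 form a small group of their own whose receptors bind VCAM1, osteopontin and an alternative segment of fibronectin. ITGA4 (chromosome 2, 181457202 to 181536187, plus strand, 28 exons) read 67.3, 91.0 and 174 in the shARVCF nutlin-3a libraries, against 194, 257 and 303 in the untreated ones, and 47.1, 44.6 and 31.5 in the nutlin-3a control libraries, against 227 in the untreated control. All 6 nutlin-3a libraries lay below all 4 untreated ones. It fell 2.41-fold in the shARVCF lines (log2 -1.27, SE 0.32, adjusted p = 0.00655), lower in 3 of 3 lines, and 5.49-fold in the control line (log2 -2.46, SE 0.45, adjusted p = 0.00055). Both falls held with length and GC trends removed (log2 -1.14 and -1.80). Under the drug the shARVCF lines stood above the control line (log2 1.32, adjusted p = 0.00348), without overlap of libraries. That difference lost its call with the trends removed (log2 0.76, adjusted p = 0.081) and in the first library series, where the control has 1 nutlin-3a library (log2 1.10, adjusted p = 0.103). ITGA9 was low, at 10.2, 5.55 and 5.70 in the shARVCF nutlin-3a libraries, against 8.96, 22.6 and 14.4 untreated, and 4.01, 3.86 and 2.60 in the nutlin-3a control libraries, against 22.9 in the untreated control. It fell in the control line (log2 -2.42, adjusted p = 0.00771), a call lost with the trends removed (adjusted p = 0.0508). ITGA9-AS1, named as antisense to it, read 272, 166 and 144 in the shARVCF nutlin-3a libraries, against 308, 226 and 254 untreated, and 119, 100.5 and 111 in the nutlin-3a control libraries, against 200.1 in the untreated control, and its part in the ITGA9 values was not tested.

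Of the 5 tested beta subunits of adherent cells, nutlin-3a lowered 1 in the shARVCF lines and 3 in the control line as deposited. Over all genes 21.7% and 32.0% fell. None of the 5 rose in either, where 21.0% and 25.1% of all genes did. With length and GC trends removed, 1 fell in each kind of line (20.7% and 21.0% of all genes), and ITGB5 rose in the control line. With the block on shRNA line ITGB4 rose in the shARVCF lines and ITGB5 in the control line. ITGB3 (chromosome 17, 47253846 to 47311816, plus strand, 15 exons), the beta of the vitronectin receptor that osteoclasts and platelets use, had the largest fold fall among the members called in the shARVCF lines. It read 101, 214 and 177 in the shARVCF nutlin-3a libraries, against 855, 1441 and 997 in the untreated ones, and 76.8, 74.0 and 75.3 in the nutlin-3a control libraries, against 890.3 in the untreated control. Treated and untreated libraries were far apart in both kinds of line. The fall was 6.79-fold in the shARVCF lines (log2 -2.76, SE 0.26, adjusted p = 5.22e-06), and in the control line it was 11.7-fold (log2 -3.55, adjusted p = 8.89e-06). After removal of length and GC trends the changes were log2 -2.75 in the shARVCF lines and -3.29 in the control line. Under the drug ITGB3 was 2.07-fold higher in the shARVCF lines than in the control line (log2 1.05, adjusted p = 0.00431), also with the trends removed (log2 0.84, adjusted p = 0.0224), but not in the first library series (log2 1.02, adjusted p = 0.0929). An unnamed protein-coding gene overlaps ITGB3 on the same strand.

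ITGB1 (chromosome 10, 32900319 to 33005792, minus strand, 16 exons), the most abundant beta, read 36533, 39704 and 31638 in the shARVCF nutlin-3a libraries, against 43963, 47570.2 and 34597 in the untreated ones, and 15047, 21241 and 22571 in the nutlin-3a control libraries, against 42538 in the untreated control. The nutlin-3a control libraries were the 3 lowest of the 10. It fell 2.201-fold in the control line (log2 -1.14, SE 0.23, adjusted p = 0.00124), while its change in the shARVCF lines was log2 -0.22 (adjusted p = 0.312). With length and GC trends removed the control line's change was no longer called (log2 -0.40, adjusted p = 0.186). ITGB8, which with ITGAV activates latent TGF-beta, read 1581, 1323 and 982 in the shARVCF nutlin-3a libraries, against 1747, 1479 and 1265 untreated, and 413, 272 and 324 in the nutlin-3a control libraries, against 1159 in the untreated control. Here too the nutlin-3a control libraries were the 3 lowest. The fall in the control line was 3.49-fold (log2 -1.80, adjusted p = 0.000191) as deposited, and not called with the trends removed (log2 -0.55, adjusted p = 0.0752). Its higher level in the shARVCF lines under the drug was called as deposited (log2 1.94, adjusted p = 7.88e-06) and with the trends removed (log2 0.77, adjusted p = 0.0037).

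ITGB5 varied little across the libraries, at 11202, 10806 and 11229.7 in the shARVCF nutlin-3a libraries, 10135, 9999.5 and 9371 untreated, 12618, 11542 and 10749.6 in the nutlin-3a control libraries and 9451 in the untreated control. Every nutlin-3a library still lay above every untreated one. No comparison called it as deposited without the block on shRNA line. Its rise in the control line was called with the block (adjusted p = 0.043) and with length and GC trends removed (log2 0.53, adjusted p = 0.00296), and its lower level in the shARVCF lines under the drug with the trends removed (log2 -0.25, adjusted p = 0.0326). ITGB4, the hemidesmosome subunit that pairs with ITGA6, read between 273 and 613 and was not called without the block on shRNA line. ITGB6, an epithelial partner of ITGAV, had at most 9.14 and was listed at 0 in 2 libraries.

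Of the 4 tested leukocyte subunits, ITGB2, ITGAX and ITGAM rose with nutlin-3a in both kinds of line, and ITGAE fell in the shARVCF lines. Over all genes 21.0% rose and 21.7% fell in the shARVCF lines, and 25.1% rose and 32.0% fell in the control line. The share of all genes that rose in both was not computed, so no trait of leukocyte subunits is read from so few genes. ITGB2 (chromosome 21, 44885953 to 44931989, minus strand, 17 exons), the common beta of leukocyte integrins, read 1661, 730.3 and 798 in the shARVCF nutlin-3a libraries, against 507, 209.7 and 191 in the untreated ones, and 1061, 1111 and 1125 in the nutlin-3a control libraries, against 233 in the untreated control. All 6 nutlin-3a libraries were above all 4 untreated ones, and line 1 was the highest of the shARVCF lines with and without the drug. The rise was 3.62-fold in the shARVCF lines (log2 1.85, SE 0.43, adjusted p = 0.00969), and in the control line it was 4.71-fold (log2 2.24, SE 0.61, adjusted p = 0.0143). Its partner ITGAX, the alphaX subunit of a complement receptor, read 456, 601 and 461 in the shARVCF nutlin-3a libraries, against 137, 199 and 189 untreated, and 465, 502 and 452 in the nutlin-3a control libraries, against 139 in the untreated control. It rose 2.89-fold (log2 1.53, adjusted p = 9.32e-06) and 3.37-fold (log2 1.75, adjusted p = 4.02e-05) in the shARVCF and control lines, again without overlap. ITGAM, the alphaM subunit of another complement receptor, was lower, at 23.7, 29.6 and 46.7 in the shARVCF nutlin-3a libraries, against 3.57, 6.86 and 11.05 untreated. In the control line it read 34.1, 34.8 and 22.0 under nutlin-3a, against 8.22 untreated. It rose in both (log2 2.13, adjusted p = 0.00145 in the shARVCF lines, log2 1.73, adjusted p = 0.0259 in the control line). ITGAM met the filter through its nutlin-3a libraries, as only replicate 3 of the untreated shARVCF libraries reached 10. Its calls are therefore not independent of the filter.

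None of these 3 was called between shARVCF and control lines under the drug. The differences were log2 -0.15 for ITGB2 (adjusted p = 0.786, 95% interval -1.15 to 0.85), 0.087 for ITGAX (adjusted p = 0.669, 95% interval -0.27 to 0.44) and 0.11 for ITGAM (adjusted p = 0.845, 95% interval -0.82 to 1.03). In the first library series, with 1 nutlin-3a library of the control, the control line's rises of ITGAM (log2 1.93, adjusted p = 0.0681) and ITGB2 (log2 2.19, adjusted p = 0.0583) missed the threshold, and that of ITGAM also without nutlin-3a control replicate 1 (adjusted p = 0.0586) or 2 (adjusted p = 0.0575). The other 7 blood cell markers, among them PTPRC (CD45), CD14 and CSF1R, summed to 13.1 to 21.9 in the shARVCF nutlin-3a libraries, 17.0 to 21.7 in the untreated ones, 15.5 to 24.6 in the nutlin-3a control libraries and 21.7 in the untreated control. PPBP was listed at 0 in every library. ITGB2-AS1, which lies antisense to ITGB2, read 138, 62.5 and 91.8 in the shARVCF nutlin-3a libraries, against 20.6, 14.8 and 29.1 untreated, and 114, 135 and 114 in the nutlin-3a control libraries, against 19.7 in the untreated control. The library kit keeps strand, but no source used here says whether counting used it, so reads of the pair may be mixed.

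ITGAE, the alphaE subunit that binds E-cadherin, went the other way in the shARVCF lines. It read 31.6, 34.0 and 22.1 in the shARVCF nutlin-3a libraries, against 48.3, 55.4 and 48.1 in the untreated ones, and 82.5, 55.4 and 59.1 in the nutlin-3a control libraries, against 48.1 in the untreated control. The shARVCF nutlin-3a libraries were the 3 lowest of the 10. It fell 1.73-fold in these lines (log2 -0.79, adjusted p = 0.0252, and 0.0209 with shRNA line as a block). The first of these calls was lost without shARVCF nutlin-3a replicate 3 (adjusted p = 0.0974) or untreated shARVCF replicate 1 (adjusted p = 0.0516) or 2 (adjusted p = 0.0846). Under the drug ITGAE was 2.21-fold lower in the shARVCF lines than in the control line (log2 -1.14, adjusted p = 0.0021, and log2 -1.20 with length and GC trends removed). The difference of effects was log2 -1.21 and just missed the threshold (adjusted p = 0.055). HASPIN, a mitotic kinase gene that the table lists as GSG2 and that lies opposite to ITGAE, read 11.1, 7.96 and 16.5 in the shARVCF nutlin-3a libraries, against 332, 336 and 417 untreated, and 3.51, 6.83 and 9.06 in the nutlin-3a control libraries, against 347 in the untreated control. Its part in the ITGAE values was not tested. ITGAL, ITGAD and ITGB7, the other leukocyte subunits, had at most 1.96, 1.70 and 7.55 in any library.

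Laminin alpha chains carry the sites to which integrins bind. LAMA1 (chromosome 18, 6941744 to 7117814, minus strand, 63 exons), best known from the embryonic basement membrane, read 7131, 7567 and 5811 in the shARVCF nutlin-3a libraries, against 3216, 3193 and 2722 in the untreated ones, and 3579, 3467 and 3545 in the nutlin-3a control libraries, against 2974 in the untreated control. The shARVCF nutlin-3a libraries were the 3 highest of all. The rise was 2.24-fold in the shARVCF lines (log2 1.16, SE 0.11, adjusted p = 3.12e-06), while the control line changed by log2 0.25 as deposited (adjusted p = 0.188). With length and GC trends removed the control line rose as well (log2 0.98, adjusted p = 0.000157), and the difference between the lines under the drug was log2 0.15 (adjusted p = 0.276), against log2 0.94 as deposited (adjusted p = 1.29e-05).

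LAMA2, the alpha chain of muscle laminin, read 502, 546 and 385 in the shARVCF nutlin-3a libraries, against 614, 631 and 534 in the untreated ones, and 214, 223 and 214 in the nutlin-3a control libraries, against 613 in the untreated control. The nutlin-3a control libraries were the 3 lowest. It fell 2.82-fold in the control line (adjusted p = 3.49e-05, log2 -1.49, SE 0.19), and its change in the shARVCF lines was log2 -0.32 (adjusted p = 0.0765). With the trends removed it fell in both (log2 -0.36, adjusted p = 0.0325 in the shARVCF lines, log2 -0.56, adjusted p = 0.0198 in the control line), and the difference under the drug was log2 0.15 (adjusted p = 0.37). LAMA5, the broadly expressed epithelial and vascular alpha chain, ran from 1833 to 4146 in the 10 libraries and was not called without the block.

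LAMB3 is, like LAMA3, a chain of the laminin that anchors epithelia through hemidesmosomes. LAMB3 (chromosome 1, 209614870 to 209652466, minus strand, 22 exons) read 5266, 4255 and 4948 in the shARVCF nutlin-3a libraries, against 4049, 3467 and 3297 in the untreated ones, and 9936, 10167 and 9503 in the nutlin-3a control libraries, against 3851 in the untreated control. The nutlin-3a control libraries were the 3 highest, and the shARVCF nutlin-3a libraries lay above the untreated libraries. It rose 1.34-fold in the shARVCF lines (log2 0.42, SE 0.11, adjusted p = 0.00648), and the control line's rise was 2.56-fold (log2 1.36, SE 0.15, adjusted p = 9.45e-06). The difference of these effects, log2 -0.94 (SE 0.18, adjusted p = 0.00235), was log2 -0.998 with length and GC trends removed (adjusted p = 0.0032). The 6 epithelial markers summed to 8934 to 14127 in the shARVCF nutlin-3a libraries and 9538 to 13062 in the untreated ones, and to 26595 to 27633 in the nutlin-3a control libraries, against 11973 in the untreated control. Nearly all of it was KRT8 and KRT18, while CDH1 stayed at or below 34.7 and KRT5 at or below 26.3. KRT5 and the epithelial markers not named here went against that sum in the control line. They were lower with the drug in both kinds of line, without overlap of libraries. The part of the epithelial markers in the LAMB3 values was not tested.

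LAMC1 (chromosome 1, 183023460 to 183145592, plus strand, 28 exons), the gamma chain of most laminins, read 15922, 16205 and 14738 in the shARVCF nutlin-3a libraries, against 10525, 11567 and 10009 in the untreated ones, and 11403, 13271 and 13623 in the nutlin-3a control libraries, against 10616 in the untreated control. It rose 1.46-fold in the shARVCF lines, whose libraries did not overlap (log2 0.55, SE 0.10, adjusted p = 0.000703). In the control line the 3 treated libraries were above the untreated one, and the change was log2 0.26 as deposited (adjusted p = 0.127) and log2 1.05 with the trends removed (adjusted p = 3.09e-05). Under the drug LAMC1 was thus higher in the shARVCF lines as deposited (log2 0.29, adjusted p = 0.0217) and lower with the trends removed (log2 -0.51, adjusted p = 0.000769), and no direction is given. The first of these calls was also lost without shARVCF nutlin-3a replicate 1 (adjusted p = 0.0575) or 2 (adjusted p = 0.0731), without nutlin-3a control replicate 1 (adjusted p = 0.0674), and with upper-quartile (adjusted p = 0.147) or median-of-ratios scaling (adjusted p = 0.0594). LAMC3 was called in none of the 5 comparisons and read 544 to 715.

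LAMB1 and LAMB2 are the beta chains of the widespread laminins. LAMB1 read 6939.7, 8193 and 8153 in the shARVCF nutlin-3a libraries, against 7643, 9084 and 7654 in the untreated ones, and 5591, 5341 and 5429 in the nutlin-3a control libraries, against 7953 in the untreated control. The nutlin-3a control libraries were the 3 lowest as deposited. The fall in the control line (log2 -0.54, adjusted p = 0.00557) did not hold its direction with length and GC trends removed (log2 0.084, adjusted p = 0.63), nor did the higher level of the shARVCF lines under the drug (log2 0.51, adjusted p = 0.00087, and log2 -0.090, adjusted p = 0.487 after removal). LAMB2 read 6829, 5786 and 4887 in the shARVCF nutlin-3a libraries, against 5187, 4089 and 3308 in the untreated ones, and the 2 groups overlapped, although each line was higher with the drug. It read 4911, 6269 and 5724 in the nutlin-3a control libraries, against 4296 in the untreated control. Its rise in the shARVCF lines was 1.40-fold (log2 0.49, adjusted p = 0.0356), with adjusted p-values of 0.127 and 0.0797 without nutlin-3a replicates 1 and 2, 0.0818 and 0.125 without untreated replicates 2 and 3, and 0.0526 without nutlin-3a control replicate 3. In the first library series it was 0.0631. With shRNA line as a block, the adjusted p of the LAMB2 rise in the shARVCF lines was 0.00106. LAMB4 was listed at 0 in all 10 libraries.

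Ratios of 2 subunits within a library do not depend on how libraries were scaled, but they carry the length and GC trends. Levels per kb of ITGA3 over ITGB1, partners in 1 receptor, were 0.938, 0.925 and 0.976 in the shARVCF nutlin-3a libraries, against 0.335, 0.362 and 0.493 in the untreated ones, and 2.21, 2.099 and 1.79 in the nutlin-3a control libraries, against 0.365 in the untreated control. Both drug-treated groups stood above the untreated libraries and did not overlap each other, and the nutlin-3a control libraries were the highest. ITGAV over ITGB3 was 28.6, 17.9 and 20.1 in the shARVCF nutlin-3a libraries, against 3.07, 2.42 and 3.20 untreated, and 12.7, 9.71 and 11.3 in the nutlin-3a control libraries, against 3.59 in the untreated control. Here the shARVCF nutlin-3a libraries were the highest, and the nutlin-3a control libraries lay between them and the untreated ones. LAMB3 over LAMB1 was 1.02, 0.696 and 0.813 in the shARVCF nutlin-3a libraries, against 0.710, 0.511 and 0.577 untreated, and 2.38, 2.55 and 2.34 in the nutlin-3a control libraries, against 0.649 in the untreated control. The nutlin-3a control libraries stood apart from all others on this ratio. For each of the 3 ratios the exact two-sided permutation test of shARVCF against control libraries under nutlin-3a gave p = 0.1, the smallest that 3 against 3 allows. Between treated and untreated shARVCF libraries it gave 0.1 for ITGA3 over ITGB1, 0.1 for ITGAV over ITGB3 and 0.2 for LAMB3 over LAMB1. In all, 8 ratios were computed, and no test of this size could pass 0.05.

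The test of the difference between the nutlin-3a effects called 6 members. ITGAV (log2 2.07), ITGB8 (log2 1.58), LAMA2 (log2 1.17), ITGB1 (log2 0.92) and LAMA1 (log2 0.92) had higher, and LAMB3 (log2 -0.94) lower values in the shARVCF than in the control effect. Adjusted p-values were 0.00012, 0.00472, 0.00286, 0.028, 0.00323 and 0.00235 in that order. For LAMA1 the 2 effects were a rise of log2 1.16 and a change of log2 0.25, and for LAMB3 2 rises of unequal size. ITGAV, ITGB8, LAMA2 and ITGB1 were called lower in the control line and not called in the shARVCF lines. The difference for ITGB1 lost its call without shARVCF nutlin-3a replicate 1 (adjusted p = 0.0503) or 2 (adjusted p = 0.056) and with upper-quartile scaling (adjusted p = 0.0552). With length and GC trends removed, ITGAV and LAMB3 were still called. ITGB8 (log2 0.48, adjusted p = 0.334), LAMA2 (log2 0.20, adjusted p = 0.618), ITGB1 (log2 0.40, adjusted p = 0.441) and LAMA1 (log2 0.085, adjusted p = 0.819) were not, and LAMC1 was called lower (log2 -0.54, adjusted p = 0.0374). As deposited the difference for LAMC1 was log2 0.29 and not called, so its sign turned and no direction is given.

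**Figure D2:**
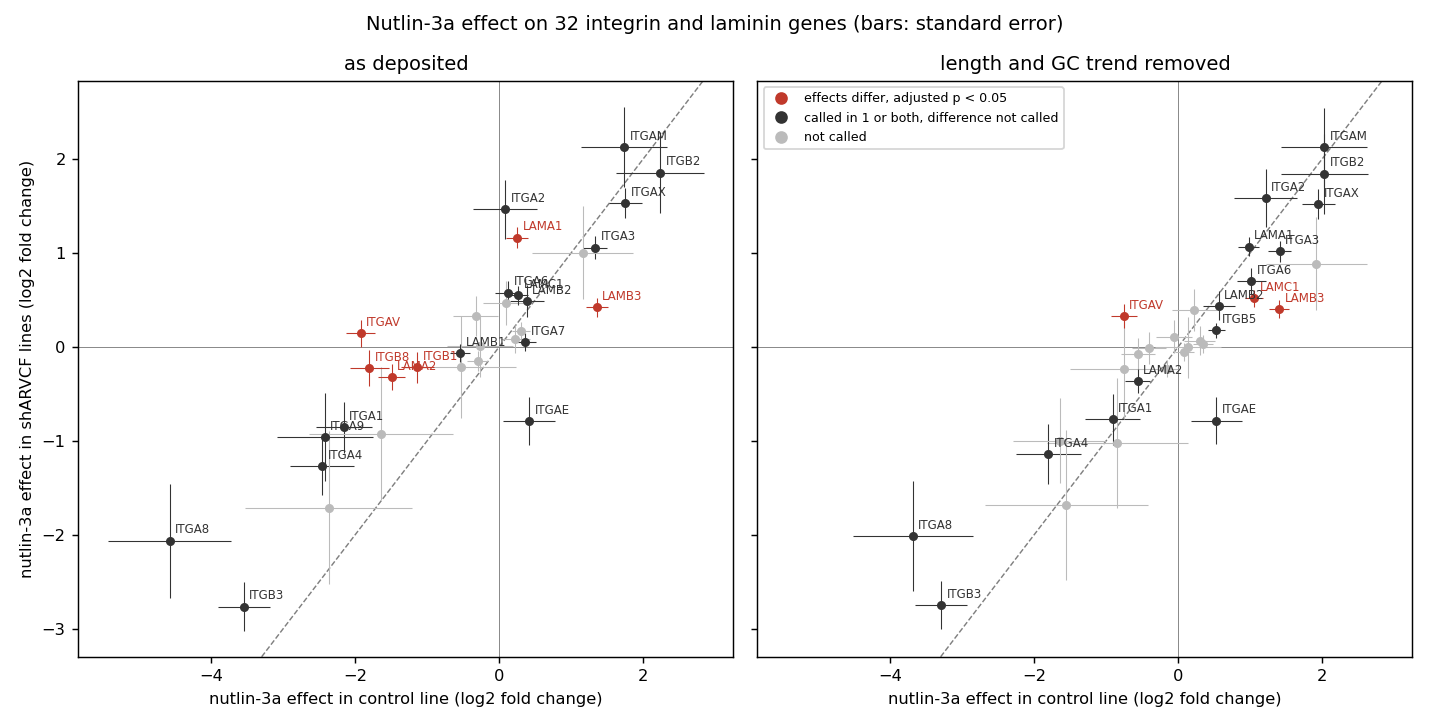
Each of the 32 points is a tested member, with the nutlin-3a effect (log2) in the shARVCF lines on the y axis and in the control line on the x axis, bars for 1 SE, as deposited and with length and GC trends removed. ITGAV lies at log2 0.15 in the shARVCF lines and -1.92 in the control line as deposited, and at 0.33 and -0.75 with the trends removed.

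**Figure D3:**
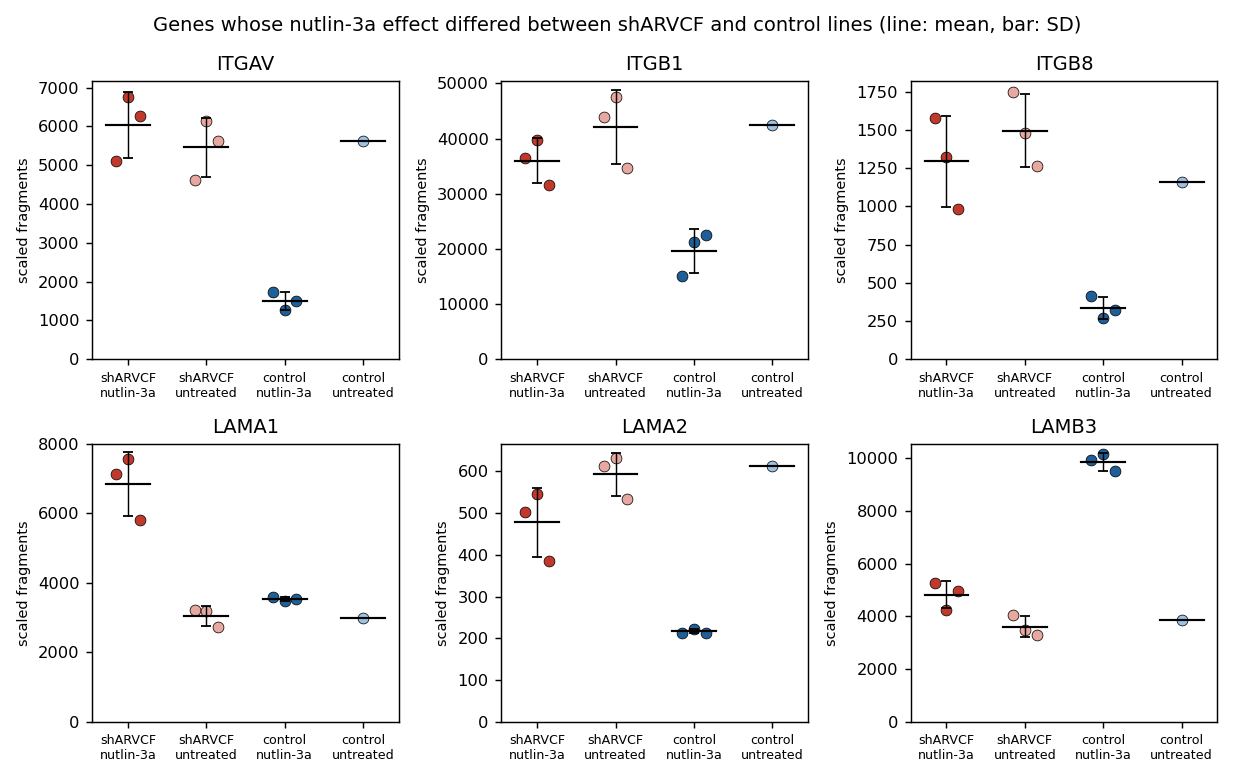
Scaled fragments of the 6 members whose nutlin-3a effects differed, 1 point per library by group, with a line at the group mean and a bar for the SD (n = 3; the untreated control is 1 library). The nutlin-3a control libraries are the lowest for ITGAV (1717, 1264 and 1494), ITGB1, ITGB8 and LAMA2 and the highest for LAMB3, and the shARVCF nutlin-3a libraries are the highest for LAMA1.

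Members with lower GC content tended to stand higher in the shARVCF than in the control line under nutlin-3a. Across the 33 tested members the log2 difference between shARVCF and control lines under nutlin-3a had a Spearman rho of -0.84 with GC content, and across 14708 tested genes with an annotation it had -0.52. Genes are not independent replicates, and all members share the same libraries, so no p is given. The rho with GC was 0.34 for the nutlin-3a effect in the shARVCF lines and 0.55 for that in the control line. The members are long, with a median spliced length of 5674 bases against 3350 over all tested genes, and their GC content runs from 37.84% in ITGB8 to 66.44% in LAMA5. ITGB8, ITGAV (38.25%), ITGA1 (38.76%), ITGB1 (39.98%) and ITGA2 (40.23%) had the lowest GC content of the tested members, and all 5 were called higher in the shARVCF lines under the drug as deposited. Taking the length and GC trends over all genes out of each library left a rho of -0.57 among the members. In that comparison it kept 7 of the 17 calls, those of ITGAV, ITGB8, ITGB3, ITGA8, ITGAE, ITGA7 and LAMB3. Among the others, it ended those of ITGA1, ITGA2, ITGA4, ITGB1, LAMA1 and LAMA2, turned the sign of ITGA6, LAMB1 and LAMC1, and added ITGB5. All 15 calls of the nutlin-3a effect in the shARVCF lines held. What underlies the trend in the 3 nutlin-3a control libraries was not tested.

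**Figure D4:**
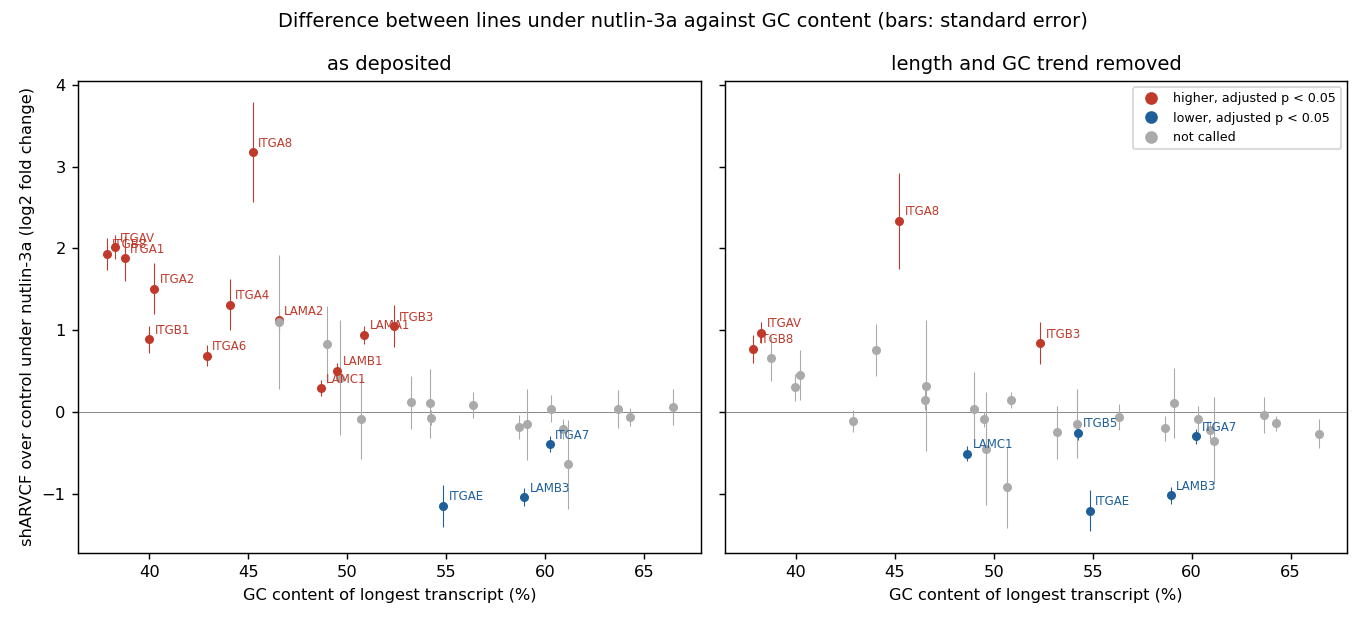
GC content of the spliced transcript (percent) is plotted against the log2 difference, shARVCF minus control, under nutlin-3a for 32 of the 33 tested members, as deposited and with each library's length and GC trends removed. The rank correlation over all 33 is -0.84 as deposited and -0.57 after removal.

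Some members differed more between the shRNA lines than between treatments. LAMA4, an alpha chain of vessels and mesenchyme, read 488, 532 and 109 in the shARVCF nutlin-3a libraries, against 1493, 1851 and 362 in the untreated ones, with line 3 lowest in both. Its change with nutlin-3a was log2 -1.61, -1.80 and -1.72 in lines 1, 2 and 3. Without a block on line it was not called (log2 -1.71, adjusted p = 0.144), and with the block it was (adjusted p = 1.29e-07). In the control line LAMA4 read 134, 158 and 133 under nutlin-3a, against 736 untreated. ITGA11, a collagen receptor subunit of mesenchymal cells, likewise read 161, 149.9 and 39.0 in the shARVCF nutlin-3a libraries, against 356, 254 and 72.2 untreated, lowest in line 3 and lower with the drug in 3 of 3 lines (adjusted p = 0.00138 with the block, 0.336 without). LAMA3 read 371, 848 and 692 in the shARVCF nutlin-3a libraries, against 146, 562 and 328 untreated, lowest in line 1 and higher with the drug in 3 of 3 lines (adjusted p = 5.62e-05 with the block, 0.147 without). It read 623, 676 and 609.9 in the nutlin-3a control libraries, against 283 in the untreated control.

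With the block, 13 members rose and 8 fell in the shARVCF lines, where 23.7% and 24.2% of all genes did. The control line had 9 that rose and 12 that fell, where 27.6% and 34.2% did, since the fit shares 1 estimate of the spread. The members gained in the shARVCF lines were ITGA11, LAMA2 and LAMA4, which fell, and ITGB4, LAMA3 and LAMA5, which rose. Those gained in the control line were ITGA11 and LAMA4, which fell, and ITGB5, LAMA3 and LAMB2, which rose. Between the lines under the drug the block added LAMA4, higher in the shARVCF lines (adjusted p = 4.51e-06), and ITGA5. For the difference of effects the count was 15 with the block, 13 higher and 2 lower (22.6% and 15.9% of all genes), against 6 without it, and the gained members were ITGA1, ITGA2, ITGA4, ITGA8, ITGAE, ITGB3, LAMA4, LAMA5 and LAMB1. With the block and the length and GC trends removed, 5 members differed, 1 higher and 4 lower in the shARVCF effect (7.92% and 12.0% of all genes). ITGAV and LAMB3 were called under all 4 of these settings.

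Genes that work with integrins and laminins moved in both directions. Of 40 tested adaptors and kinases of the cytoplasmic side, nutlin-3a raised 11 (27.5%) and lowered 9 (22.5%) in the shARVCF lines, near the 21.0% and 21.7% of all genes. It raised 14 (35%) and lowered 12 (30%) in the control line, against 25.1% and 32.0% of all genes. CAV1, a caveolar scaffold, rose in both (log2 0.999, adjusted p = 6.17e-05 in the shARVCF lines, log2 1.11, adjusted p = 0.000284 in the control line), and FERMT2, the kindlin that activates integrins beside talin, fell in both (log2 -0.67 in the shARVCF lines, -1.17 in the control line). LIMS1, a partner of integrin-linked kinase, also fell in both (log2 -0.56 in the shARVCF lines and -1.96 in the control line, and -0.38 and -1.15 with length and GC trends removed). Under the drug 14 adaptors (35%) were higher and 11 (27.5%) lower in the shARVCF lines, against 32.3% and 26.1% of all genes. With the trends removed the counts were 6 and 10, against 15.9% and 23.0% of all genes. LIMS1 (log2 1.43, 0.75 after removal) and CRK, an adaptor of focal adhesions (log2 2.90, 2.44 after), were among those higher as deposited.

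Of 30 other matrix ligands and basement membrane genes, nutlin-3a raised 16 (53.3%) and lowered 6 (20%) in the shARVCF lines, against 21.0% and 21.7% of all genes, and raised 7 (23.3%) and lowered 7 (23.3%) in the control line, against 25.1% and 32.0%. CYR61, a matricellular ligand of ITGAV receptors, rose in both (log2 1.82 in the shARVCF lines, 2.19 in the control line), as did MFGE8, another Arg-Gly-Asp ligand (log2 1.04 and 1.52). NTN4, a netrin that binds laminin, rose in the shARVCF lines (log2 1.34; control line log2 -0.048, adjusted p = 0.83) and was higher there than in the control line under the drug (log2 1.37, 1.05 with the trends removed). FN1, which encodes fibronectin, was also higher in the shARVCF lines under the drug (log2 1.77, 0.98 after removal, adjusted p = 0.00101). Of the 30, 13 (43.3%) were higher and 6 (20%) lower under the drug as deposited, where 32.3% and 26.1% of all genes were called. With the trends removed the counts were 6 and 6, against 15.9% and 23.0% of all genes. Of 20 other laminin receptors and tetraspanin partners, 7 (35%) rose and 5 (25%) fell in the shARVCF lines, where 21.0% and 21.7% of all genes did. In the control line 10 (50%) rose and 6 (30%) fell, where 25.1% and 32.0% did. With the trends removed 7 rose and 1 fell in the shARVCF lines (24.5% and 20.7% of all genes). The control line then had 8 that rose and 1 that fell (28.7% and 21.0%). COL17A1, the hemidesmosomal collagen, rose most among the members of that list named here (log2 3.999 in the shARVCF lines, 4.096 in the control line), and SDC4, a syndecan of focal adhesions, rose in both (log2 1.91 and 2.31). DAG1, the dystroglycan that binds laminin, fell in both (log2 -0.83 in the shARVCF lines and -2.203 in the control line, -0.86 and -1.83 after removal) and was higher in the shARVCF lines under the drug (log2 1.24, 0.90 after removal). More of that list went the other way under the drug: of the 20, 3 (15%) were higher and 8 (40%) lower in the shARVCF lines. Over all genes 32.3% and 26.1% were. With the trends removed the counts were 2 and 8, against 15.9% and 23.0% of all genes. No gene of these 3 lists was called between the lines without the drug (limma).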

How the data were processed

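Poly(A) RNA of 10 U2OS libraries was sequenced with a stranded kit, per the labels. Per the submitters' processing notes, reads passed through bcl2fastq 1.8.3, HISAT2 2.1.0 on hg38 and Cuffnorm 2.2.1; no annotation is named (not given in the sources used here). Values as deposited are a signal made by the authors, fragments per gene scaled across libraries, not whole counts. Integrin and laminin members, gene lists and tests were chosen with earlier results of these data known.

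limma 3.58.1 (R 4.3.3) was fitted to log2(value + 1) of the 14955 genes with at least 10 in at least 3 libraries, with 4 group means, 6 residual degrees of freedom, and a trended, robust eBayes step. Tests were two-sided, Benjamini-Hochberg adjusted over all tested genes of a comparison with calls at 0.05. A fold change is that of value + 1, which understates changes of low genes. Replicates differed by a median absolute log2 of 0.155 to 0.217 per gene, so no library was a copy of another. The fit was tested on simulated data.

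Symbols were matched to GENCODE release 29 (24016 directly, 646 through an older symbol, 1378 without a match), whose longest transcript gave length, GC and exons. The length and GC trends were removed per library by splines with 4 degrees of freedom over 14708 genes. Replicate numbers pair the shARVCF libraries by shRNA line: across genes, residuals of the same line under both treatments had r = 0.275, 0.288 and 0.327, and those of other lines -0.204 to -0.0862. Residuals from a group mean cancel within the group, so the negative values follow from the positive ones and are no separate support.

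Members called in any comparison, and the leading member of each role, are given by library; from each of the other lists at most 4 called genes per comparison, those of smallest adjusted p, were open to naming. Of the members and of the markers, 1 each is in the counts but is not reported here. Alternatives were pseudocounts of 0.1 and 10, other filters and scalings, plain eBayes, library series, each library left out, the block on line, and the length and GC removal.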

Additional observations from a re-analysis of the deposited data

Results flagged for a closer look

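The nutlin-3a effect differed between the shARVCF lines and the control line for 6 members, by the test of that difference itself. ITGAV had an effect of log2 0.15 in the shARVCF lines and -1.92 in the control line, a difference of 2.07. ITGB8 had -0.22 and -1.80, a difference of 1.58, and LAMA2 -0.32 and -1.49, a difference of 1.17. ITGB1 had -0.22 and -1.14, a difference of 0.92. LAMA1 had 1.16 and 0.25, a difference of 0.92. LAMB3 had 0.42 and 1.36, a difference of -0.94. All rest on 1 untreated control library. With length and GC trends removed the differences were 1.08 for ITGAV and -0.998 for LAMB3, both called, and 0.48, 0.20, 0.40 and 0.085 for ITGB8, LAMA2, ITGB1 and LAMA1, none of them called.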

How the results depend on the processing

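Over the 5 comparisons, leaving out 1 library gave 12 to 15 called members for nutlin-3a in the shARVCF lines, 15 to 17 in the control line, 16 to 17 between the lines under nutlin-3a, 0 without the drug and 5 to 10 for the difference of effects, with 10 without shARVCF nutlin-3a replicate 1. Of all 14955 tested genes, the same settings called 5326 to 6613, 8185 to 8575, 7847 to 8734, 1 to 5 and 4147 to 4833 in that order. Without shARVCF nutlin-3a replicate 1 the difference of effects was called for 4303 of them. The lone untreated control library could be left out only for nutlin-3a in the shARVCF lines and between the lines under nutlin-3a. The other ranges therefore do not test the dependence on it. With the replicate block on shRNA line, 15 members had different effects, and the block ended no call of a member in the 5 comparisons. With length and GC trends removed, 9 members differed between the lines under nutlin-3a and 3 in their effects. Then LAMB1 turned to log2 0.084 in the control line, and ITGA6, LAMB1 and LAMC1 to -0.11, -0.090 and -0.51 under nutlin-3a, also with the block added. For the difference of effects LAMC1 turned from log2 0.29 to -0.54 with these trends removed. Other scalings moved the median of all genes by over 0.1: library totals by -0.12 in the control line and 0.11 under nutlin-3a, and upper quartiles by 0.17, -0.11 and, for the difference of effects, -0.12; length and GC removal moved these 3 by 0.20, -0.12 and -0.12. The split of differing effects was 7 higher and 1 lower with library totals, 4 and 2 with upper quartiles, and 5 and 2 with median-of-ratios or TMM factors, against 5 and 1. Over all tested genes it was 3380 and 1462 with library totals and 2493 and 2541 with upper quartiles. It was 2697 and 2212 with median-of-ratios and 2747 and 2114 with TMM factors, against 2893 and 1863. The cause was not tested. Unscaled depth is not in the values, so no counting interval is given, and ITGA8, ITGA9 and ITGAM lie near the filter. ITGAM passed it through nutlin-3a libraries, and ITGA8 and ITGA9 mostly through untreated ones, so their calls are not independent of it.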
